A study of Mus musculus with 24 samples.

Results

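The secreted guidance ligands Slit1, Slit2 and Slit3 and the roundabout receptors Robo1, Robo2, Robo3 and Robo4 were followed in developing spinal nerve roots of the mouse. They are 7 of the 37074 gene names on the array, and they were taken by name: a gene probe belonged to the family where its gene name was 1 of the 7. The family had 26 such probes, 7 for Slit2, 8 for Robo2, 6 for Robo1, 2 for Robo3 and 1 each for Slit1, Slit3 and Robo4. Where a gene had several, the probe with the highest mean over the 24 arrays was taken first and is called the lead probe. RNA came from efferent nerve fibres (EN, the ventral root) and afferent nerve fibres (AN, the dorsal root) of spinal segments L4-L6 in C57BL/6 mice at P0 (the day of birth), 1W, 3W and 5W (weeks), with 3 arrays in each of the 8 groups. All groups were untreated animals of this strain. The study describes animals of both sexes, dissection after the arachnoid had been peeled off and independent experiments for each group. It also describes fibres of several animals per age gathered into tubes that match the 8 groups. How many animals an array holds, and whether the arrays of a group share pooled tissue, is not given in the sources used here. The study takes EN as mainly motor axons and AN as mainly the central branches of dorsal root ganglion neurons, with Schwann cells left in the samples.

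Slits are large secreted proteins of leucine-rich and EGF-like repeats that bind the immunoglobulin domains of Robo receptors and, classically, repel growing axons from the ventral midline. In the spinal cord they keep motor axons and commissural axons on their paths, and around the dorsal root entry zone Slit1, Slit2, Robo1 and Robo2 take part in guiding the branches of sensory axons. Robo1 and Robo2 are the main neuronal Slit receptors. Robo3 of mammals has lost high affinity for Slits and binds Nell2, and Robo4 is the receptor of endothelial cells.

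The sequences of 3 probes are shown, because Slit2, Slit3 and Robo2 carried most of the differences below and these probes read inside their transcripts. Each is 60 bases long, from the deposited array files, 5′ to 3′ on the strand of the gene, with positions in mm9, the build those files use. Exons and UTRs of mm9 were not annotated here.
Slit2, second probe, chr5:48648107-48648290, plus strand: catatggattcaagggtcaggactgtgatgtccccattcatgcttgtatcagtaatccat
Slit3, lead probe, chr11:35521559-35521618, plus strand: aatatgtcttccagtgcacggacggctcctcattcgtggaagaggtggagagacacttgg
Robo2, second probe, chr16:73928398-73933866, minus strand: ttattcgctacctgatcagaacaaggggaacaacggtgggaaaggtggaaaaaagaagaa
The 60 bases of the Slit2 probe span 184 bases of the genome and those of the Robo2 probe 5469, so both read spliced RNA, whereas the Slit3 probe lies in 1 uninterrupted stretch. In GRCm38.p6, Slit2 and Slit3 also share a guest, since each contains a gene for the same microRNA, Mir218-1 at chr5:48223942-48224051 in Slit2 and Mir218-2 at chr11:35616816-35616925 in Slit3. Its mature RNA from RefSeq, with the seed (bases 2 to 8) in capitals, is printed to show what both loci share. Its level was not analysed here.
miR-218-5p: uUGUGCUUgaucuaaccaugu
In the same build Robo4 (chr9:37401902-37414023) and Robo3 (chr9:37416045-37433436) are neighbours separated by 2021 bases, and Robo1 (chr16:72027518-73047491) and Robo2 (chr16:73891976-75447443) lie on 1 chromosome.

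Values are log2 signals of the authors' quantile normalized table, and a probe's level was compared only with its own level in other groups. A probe was tested where some group had it well above the local background on all 3 of its arrays, which held for 36409 gene probes and for 14 of the 26 family probes. All 7 lead probes passed, and for 5 of them (Slit1, Slit2, Slit3, Robo1, Robo4) no array fell short of that mark. Of the 12 probes that did not pass, 5 were never well above background and no other was on more than 7 arrays. A difference was called where limma, fitted to all 8 groups, gave an adjusted p below 0.05. Between 55.1% and 71.7% of the gene spots of an array were well above background.

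Markers of several cell types were read beside the family. All 9 Schwann cell markers were above background on all 24 arrays. Between the nerves 3 of them were lower in AN at P0, and against P0 6, 7 and 8 rose in EN and 7, 7 and 9 in AN by 1W, 3W and 5W. The 8 sensory neuron markers, among them Avil, Calca and Scn10a, did not follow the nerve labels at birth: their mean log2 level was 11.10 to 11.74 on the EN arrays and 11.15 to 12.59 on the AN arrays of P0, and no marker differed. By 1W this mean lay at 6.98 to 8.53 in EN and at 11.91 to 12.18 in AN, and 7 of the 8 markers were higher in AN. At 3W, AN replicate 3 stood apart with 13.21, against 8.87 and 8.51 on the other AN arrays and 6.77 to 7.45 in EN. At 5W the AN arrays spread from 6.94 to 10.25. Several values that rest on this AN array of 3W are therefore given with and without it. Of the 6 motor neuron and cholinergic markers 5 were tested. Chat, Slc18a3 and Lhx3 were above background on all 24 arrays and Slc5a7 on 10, Mnx1 was not tested, and Isl2, which sensory neurons express too, read 12.15 in AN and 7.09 in EN at 1W. None of the 5 was higher in EN at any age by the test, and 1 was higher in AN at 1W. Glial markers of the central nervous system were higher in AN at 1W and at 5W, with 2 of 5 oligodendrocyte and 3 of 4 astrocyte markers called at each of these ages and none at P0 or 3W. Boundary cap markers, 3 in all, were higher in AN, 1 of them at P0, 3 at 1W and 1 at each later age, and 2 of 4 meningeal markers were lower in AN at 1W and at 5W. Of the 4 macrophage, 4 skeletal muscle and 2 floor plate or ependymal markers none was called between the nerves, and the muscle list had a mean of 8.72 to 12.15 on the EN arrays and 7.83 to 13.94 on the AN arrays. In these bulk samples, fewer cells of a type and less RNA per cell cannot be told apart.

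Between the nerves, 1 of the 7 lead probes was called at P0 (Slit2), against 0.736% of all tested probes, and 1 at 1W (Robo2), against 4.01%. At 3W it was 4 (Slit2, Slit3, Robo2, Robo4), against 5.92%, and at 5W it was 2 (Slit2, Robo2), against 6.8%. In this fit Slit2 was called higher in AN at birth and higher in EN at 3W and 5W, and Robo2 higher in AN at 3 ages. The arrays of the nerves did not overlap for 3 lead probes at P0 (Slit2, Slit3, Robo4), for 3 at 1W (Slit1, Robo2, Robo4), for 6 at 3W (all but Robo1) and for 3 at 5W (Slit2, Robo2, Robo3). Over all tested probes this held for 13.2%, 24.7%, 32.7% and 20.1% at these ages.

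**Figure D1:**
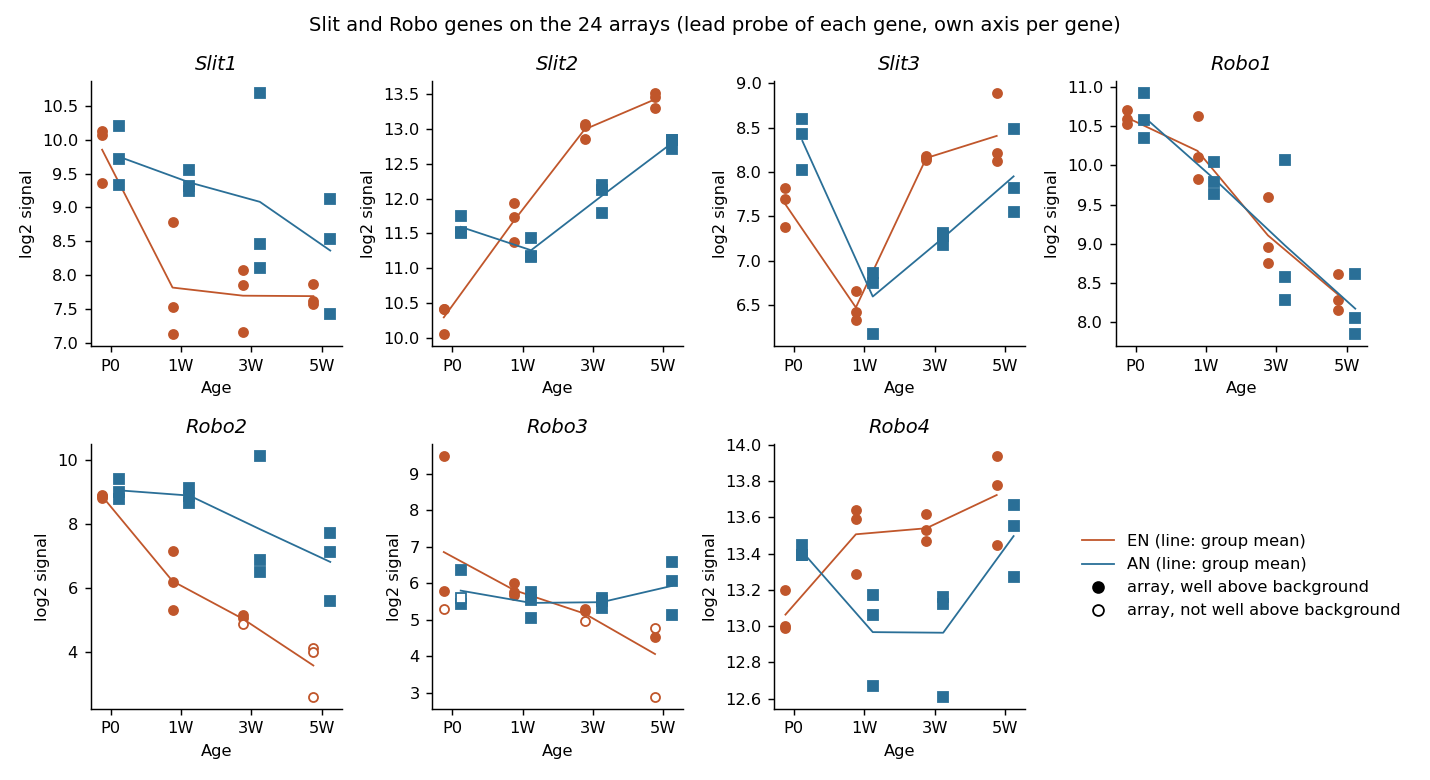
Log2 signal of the lead probe of each gene (vertical axis, own scale per gene) at each age (horizontal axis) in EN and AN, 1 point per array, with lines through the means of 3 arrays and open points for arrays not well above background. Slit2 climbed in EN from 10.05 to 10.41 at P0 to between 13.31 and 13.52 at 5W, while Robo2 in EN ended at 5W on 3 arrays that were not above background.

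Within each nerve, the family moved in opposite directions by gene. In EN, 4 lead probes were called at 1W against P0, of which Slit2 was higher and Slit1, Slit3 and Robo2 were lower, where 27.1% of all tested probes were called (15.5% higher, 11.6% lower). By 3W 5 were called, Slit2 and Robo4 higher and Slit1, Robo1 and Robo2 lower, beside 55.2% (29% higher, 26.2% lower). By 5W all 7 were called, Slit2, Slit3 and Robo4 higher and Slit1, Robo1, Robo2 and Robo3 lower, beside 54.3% (28.2% higher, 26.1% lower). In AN, Slit3 alone was called at 1W and was lower, beside 21.7% of all tested probes (12.4% higher, 9.37% lower). By 3W 4 were called, Slit2 higher and Slit3, Robo1 and Robo4 lower, beside 51.9% (26.9% higher, 25% lower). By 5W it was again 4, Slit2 higher and Slit1, Robo1 and Robo2 lower, beside 50.7% (26.5% higher, 24.2% lower). Between neighbouring ages, 3 lead probes were called in EN from 1W to 3W and 0 from 3W to 5W, where 27.5% and 2.26% of all tested probes were called. In AN these counts were 2 and 1, beside 30% and 3.72%. The median change of the 7 lead probes at 5W was −2.17 in EN and −0.40 in AN on the log2 scale, with 0.04 and 0.03 over all tested probes. These comparisons share their P0 arrays.

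**Figure D2:**
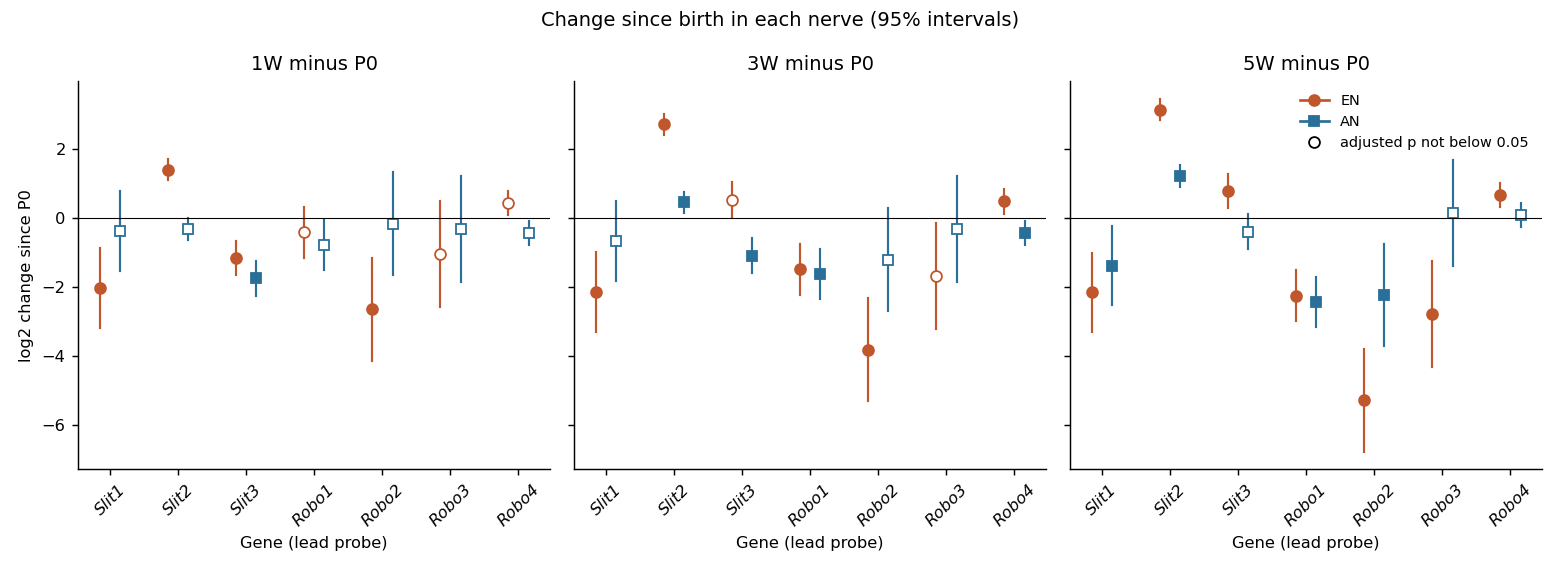
Change of each lead probe since P0 on the log2 scale (vertical axis), for EN and AN at the 3 later ages, with 95% intervals and open points where the adjusted p was not below 0.05. Slit2 rose by 3.14 in EN and by 1.21 in AN by 5W, and Robo1 fell by about the same amount in both nerves.

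Slit2, the ligand best known from the floor plate, was the member with the firmest difference between the nerves, and its direction turned after birth. At P0 its lead probe (chr5:48696502-48696561, mm9) read 10.41, 10.05 and 10.41 in EN and 11.52, 11.51 and 11.75 in AN, so every AN array was above every EN array. The difference was 1.30 ± 0.15 (SE, n = 3 and 3), a 2.47-fold higher signal in AN (limma, adjusted p = 0.000717). At 1W the arrays overlapped, with 11.74, 11.94 and 11.38 in EN and 11.16, 11.44 and 11.17 in AN, and the difference of −0.43 (95% interval −0.75 to −0.12) was not called (adjusted p = 0.142). It was called with AN and EN of the same number as pairs (limma, adjusted p = 0.0362) and without EN replicate 3 of 1W (−0.59, adjusted p = 0.037). With array weights it was −0.50 and called as well (limma, adjusted p = 0.00745).

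By 3W all EN arrays were above all AN arrays, at 13.08, 12.86 and 13.05 against 12.19, 12.13 and 11.79, a difference of −0.96 ± 0.15 (limma, adjusted p = 0.000781). At 5W EN read 13.46, 13.31 and 13.52 and AN read 12.85, 12.71 and 12.84, and the difference was −0.63 ± 0.15 (limma, adjusted p = 0.0155). This last call was lost without AN replicate 2 (−0.58) or EN replicate 3 (−0.59) of 5W, at adjusted p of 0.0585 to 0.0687. AN minus EN of a pair, both on 1 slide, was 1.1 to 1.46 at P0 and −0.22 to −1.25 in the 9 later pairs, so each pair had the sign of its age. Without AN replicate 3 of 3W, the difference at 3W was −0.84 (adjusted p = 0.00529). The calls at P0 and 5W were not kept when the 6 arrays of an age were fitted alone (limma, adjusted p = 0.174 and 0.173), which left the differences themselves unchanged.

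The turn itself was tested as the change of the AN-EN difference since P0. It came to −1.74 at 1W (95% interval −2.18 to −1.29, limma, adjusted p = 0.002), −2.26 at 3W (−2.71 to −1.81, adjusted p = 5.66e-05) and −1.93 at 5W (−2.38 to −1.48, adjusted p = 0.000204). Slit2 was the sole lead probe called in this contrast at 1W and at 5W, where 0.0632% and 1.16% of all tested probes were called. At 3W Slit3 was called as well, beside 0.618%. With AN and EN of the same number as pairs, 8 values of the 7 genes were called in place of 4 over the 3 ages. The share of all tested probes called in pairs is not given here, so this count is not read as a trait of the family. By the looser rule of a raw p under 0.05 with more than a 2-fold change, 10 were, beside 3.79%, 4.09% and 4.61% of all tested probes at 1W, 3W and 5W.

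Behind the turn, EN and AN changed unequally with age. In EN, Slit2 rose by 1.40 by 1W, 2.71 by 3W and 3.14 by 5W (limma, adjusted p = 3.34e-06, 1.48e-10 and 1.19e-11), 8.82-fold over the 5 weeks. In AN it read 0.34 lower at 1W, which was not called (adjusted p = 0.124) but was called with the slide as a block (−0.43, adjusted p = 0.0294). It rose by 0.45 by 3W (adjusted p = 0.019) and by 1.21 by 5W (adjusted p = 2.11e-06). The rise in AN by 3W was lost without AN replicate 1 or 2 of P0 or AN replicate 1 or 2 of 3W (0.37 to 0.41, adjusted p = 0.0596 to 0.0829), on 6 arrays alone (0.45, adjusted p = 0.0783) and with the slide as a block (0.24, adjusted p = 0.371). Between neighbouring ages it was called from 1W to 3W in EN (1.31) and AN (0.78) and from 3W to 5W in AN (0.77, adjusted p = 0.00742), where few probes of any kind were called. The EN step from 3W to 5W was 0.43 (adjusted p = 0.147).

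Within 1 slide the direction was the same. On slide 2, the EN array of 5W was 3.08 above the mean of 2 EN arrays of P0, and the AN array 1.08 above its 2. On slides 1 and 2, the EN arrays of 1W were 1.33 and 1.16 above those of P0. No slide held both 3W and P0 arrays. From high to low, the group means ran 5W EN, 3W EN, 5W AN, 3W AN, 1W EN, P0 AN, 1W AN, P0 EN, and of the neighbours in that order 3W AN with 1W EN and 1W EN with P0 AN overlapped.

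**Figure D3:**
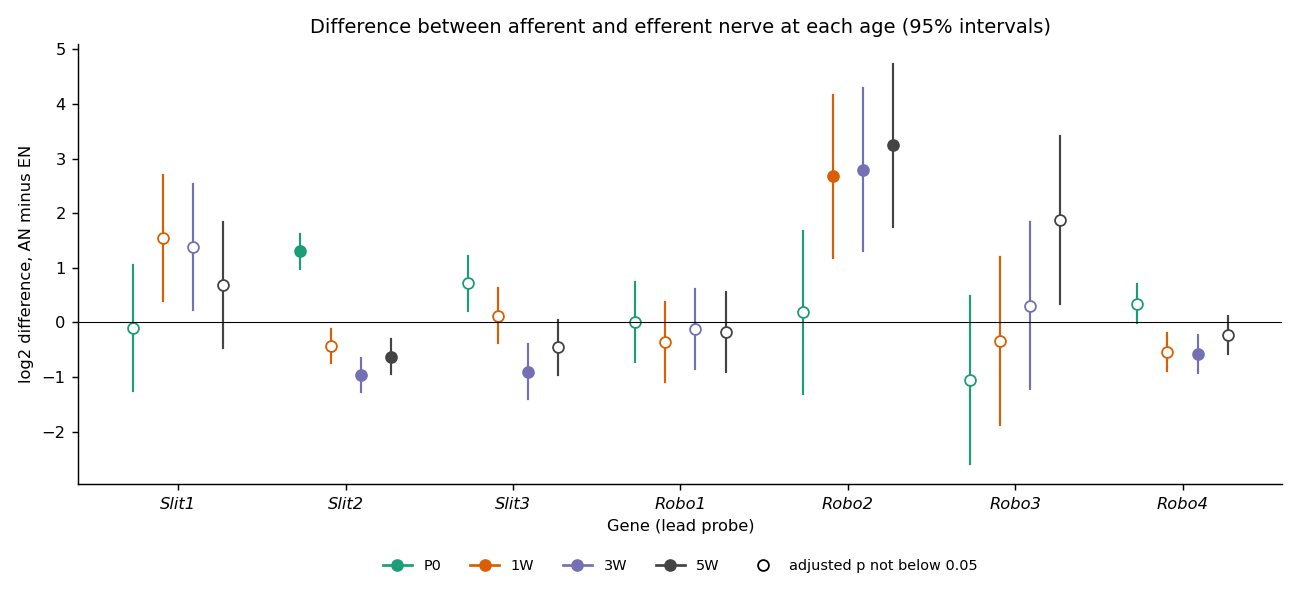
Log2 difference between AN and EN for the lead probe of each gene (horizontal axis) at each age, with 95% intervals and open points where the adjusted p was not below 0.05. Slit2 lay at 1.30 at P0 and below 0 at all later ages, while Robo2 lay at 2.67 at 1W and 2.80 at 3W. Its point at 5W is set against EN arrays not above background, where the difference is at least 3.45-fold.

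The probes of Slit2 did not all run alike. The second probe, printed above, was well above background on 18 arrays and passed the filter only through groups of 3W and 5W. At these ages it was highest, so its rises by 3W and 5W are no separate support for the lead probe. In EN it rose by 1.60 at 1W, by 3.70 at 3W and by 3.55 at 5W (limma, adjusted p = 0.0344, 1.63e-05 and 2.19e-05). Because no EN array of P0 was above background, these rises were at least 1.33-fold, 5.67-fold and 5.11-fold, against the higher of each array's detection limit and the probe's own value. It rose by 1.34 in AN by 5W (adjusted p = 0.0462). Its differences between the nerves were 1.26 at P0 and −1.59 at 3W, neither of them called (adjusted p = 0.563 and 0.0956).

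The third probe (chr5:48673757-48673816, mm9) lies between the other two and was designed on a separate transcript model. It was well above background on 9 arrays, among them all 3 AN arrays of P0 at 5.78, 6.16 and 6.42. In AN its change since P0 was −1.93 at 1W, −3.12 at 3W and −2.37 at 5W (limma, adjusted p = 0.0311, 0.000375 and 0.00358), opposite to the lead probe. This probe passed the filter through AN of P0 alone, the group where it was highest. Its fall from that group is therefore a description and no separate evidence, also within the mean of the 3 probes. At 3W it was above background on none of the 6 arrays, so the fall in AN was at least 2.65-fold. With the mean of the 3 probes in place of the lead probe, the AN change of Slit2 by 3W became −0.61 (adjusted p = 0.0667), that by 5W 0.06 (adjusted p = 0.865), and the change of the AN-EN difference by 1W −1.64 (adjusted p = 0.144). The nerve difference at 5W was then −0.61 (adjusted p = 0.199). The steps from 1W to 3W became 0.67 in EN and 0.04 in AN and that from 3W to 5W in AN 0.67, none of them called (adjusted p = 0.0736, 0.927 and 0.167). The EN rises stayed called, at 1.65 by 3W and 2.0 by 5W.

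**Figure D4:**
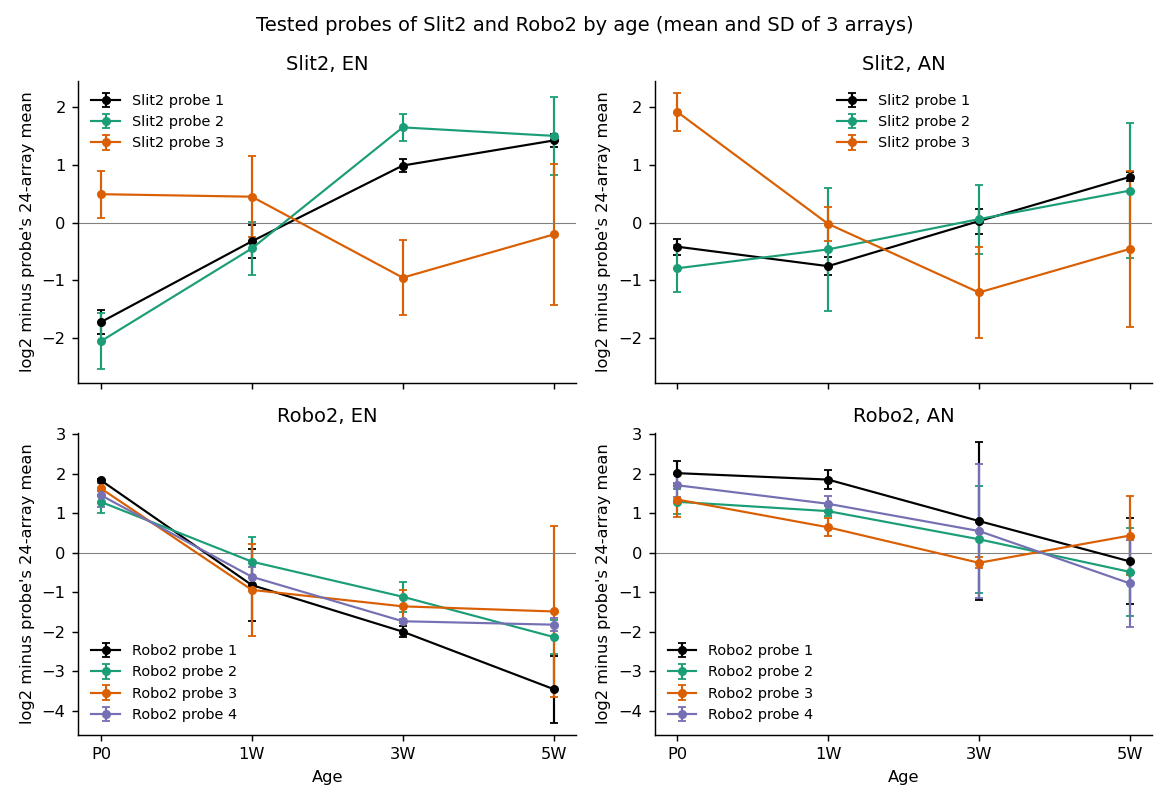
Mean and SD of 3 arrays for the 3 tested probes of Slit2 and the 4 of Robo2, each as log2 minus the probe's own mean over 24 arrays (vertical axis), by age in EN and AN. Slit2 probes 1 and 2 rose in EN while the third changed by −3.12 in AN by 3W, and all 4 Robo2 probes fell in EN.

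Slit3, a ligand also made outside the nervous system, dipped at 1W in both nerves. Its probe read 7.82, 7.38 and 7.70 in EN and 8.43, 8.02 and 8.60 in AN at P0. At 1W it read 6.42, 6.66 and 6.33 in EN and 6.17, 6.75 and 6.86 in AN, below every P0 array of the same nerve. The change was −1.16 in EN (limma, adjusted p = 0.00153, with normexp −0.73) and −1.76 in AN (adjusted p = 3.78e-05). On slides 1 and 2, which hold P0 and 1W arrays, AN of 1W minus AN of P0 was −2.27 and −1.45.

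By 3W, EN was back at 8.18, 8.13 and 8.16, a rise of 1.69 since 1W (limma, adjusted p = 5e-05), or 0.89 with the slide as a block (adjusted p = 0.0213), and AN stood at 7.31, 7.28 and 7.18. The AN step since 1W was 0.66 (adjusted p = 0.0445). From 3W to 5W no step was called, but with the slide as a block those in EN (0.76, adjusted p = 0.043) and AN (1.2, adjusted p = 0.00446) were. The AN step from 1W to 3W was −0.14 with the slide as a block (limma, adjusted p = 0.718). Without any of 11 arrays (P0 AN 1, P0 EN 3, 1W AN 1 and 2, 1W EN 1 and all 6 of 3W) that AN step was not called, at 0.45 to 0.74. Against P0, the change in AN at 3W was −1.1 (adjusted p = 0.000884), and EN was 0.78 higher at 5W (adjusted p = 0.0107). The changes of 0.53 in EN at 3W and −0.40 in AN at 5W were not called (adjusted p = 0.071 and 0.182). With the slide as a block these were −0.35 (adjusted p = 0.284), of the opposite sign, and −0.77, which was called (adjusted p = 0.00291), and the change in AN at 3W was −1.97. Without AN or EN replicate 3 of 5W the value in EN at 3W was called (adjusted p = 0.0413 to 0.0469), and without AN replicate 3 of 5W that in AN at 5W (−0.66, adjusted p = 0.0278). The EN rise by 5W was lost without EN replicate 2 of P0 or EN replicate 3 of 5W (0.53 to 0.65, adjusted p = 0.0529 to 0.0775) and with the slide as a block (0.40, adjusted p = 0.0814).

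Slit3, like Slit2, read higher in AN at birth and higher in EN at 3W, though the difference was smaller. AN minus EN was 0.72 at P0 (95% interval 0.22 to 1.22, adjusted p = 0.272), 0.13 at 1W, −0.90 at 3W (limma, adjusted p = 0.0311) and −0.46 at 5W (adjusted p = 0.296). In pairs of the same number the values at P0 and 5W were called too (limma, adjusted p = 0.013 and 0.0285), and with the slide as a block that at P0 (adjusted p = 0.0355). The change of the difference since P0 was −1.62 at 3W (95% interval −2.33 to −0.91, adjusted p = 0.0345) and −1.17 at 5W (adjusted p = 0.116, in pairs 0.00715, with the slide as a block 0.0139, without AN replicate 3 of 5W −1.44 and 0.0245). With normexp background correction, the values at 3W were −0.61 between the nerves and −1.16 for the change (adjusted p = 0.0685 and 0.0572). Leaving out any of the 6 arrays of 3W ended the call between the nerves at 3W (−0.93 to −0.87, adjusted p = 0.0552 to 0.0988). Leaving out any of these 6, any EN array of P0 or AN replicate 1 or 3 of P0 ended that of the change (−1.72 to −1.49, adjusted p = 0.0512 to 0.106). At 5W the EN arrays read 8.21, 8.12 and 8.89 and the AN arrays 7.82, 7.55 and 8.48, which overlap. From 5W EN, the highest, down to P0 EN all neighbouring groups overlapped, whereas 3W AN lay below these and above both groups of 1W.

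Slit1, the ligand most restricted to the nervous system, fell in EN within 1W. It read 10.13, 10.07 and 9.36 in EN and 10.20, 9.72 and 9.33 in AN at P0. At 1W the EN arrays read 7.13, 7.53 and 8.79 and the AN arrays 9.31, 9.24 and 9.56, without overlap. The EN change was −2.03 at 1W, −2.16 at 3W and −2.17 at 5W (limma, adjusted p = 0.0101, 0.00292 and 0.00272), a 4.49-fold fall by 5W. The call at 1W was lost without EN replicate 1 of that age (−1.69, adjusted p = 0.0603) and the one at 3W with the slide as a block (−1.46, adjusted p = 0.198).

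In AN, Slit1 read 8.46, 8.10 and 10.69 at 3W, where replicate 3 stood apart, and 8.53, 9.13 and 7.43 at 5W. The AN change was −0.67 at 3W (adjusted p = 0.323), or −1.47 without replicate 3 (adjusted p = 0.0134) and 0.03 with the slide as a block, and −1.39 at 5W (limma, adjusted p = 0.0429). The last call was lost without any of 6 arrays (P0 AN 1 and 2, 1W AN 1, 3W EN 2, 5W AN 1 and 3), at −1.47 to −0.92. It was also lost with the slide as a block (−1.07, adjusted p = 0.19), with no filter on dim probes (limma, adjusted p = 0.0666) and on 6 arrays alone (limma, adjusted p = 0.0529). Between the nerves the difference was 1.55 at 1W (95% interval 0.40 to 2.71, adjusted p = 0.154), 1.39 at 3W (0.23 to 2.54, adjusted p = 0.158) and 0.68 at 5W (−0.48 to 1.83), with no call. Without AN replicate 3 of 3W, the difference at 3W was 0.59 and not called. Leaving out this array also made the difference at 1W a call at the same 1.55 (limma, adjusted p = 0.0297). With array weights the difference at 1W was 1.77 and called too (limma, adjusted p = 0.00172). All neighbouring groups in the order of Slit1 levels overlapped.

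Robo1, a main Slit receptor of motor and sensory axons, fell in both nerves by 5W. The lead probe (chr16:73046189-73046248, mm9) read 10.59, 10.52 and 10.71 in EN and 10.35, 10.58 and 10.92 in AN at P0. At 5W it read 8.16, 8.61 and 8.28 in EN and 8.05, 8.62 and 7.85 in AN, below every P0 array. The change since P0 was −1.5 at 3W and −2.26 at 5W in EN (limma, adjusted p = 0.00146 and 2.56e-05) and −1.63 and −2.44 in AN (adjusted p = 0.000743 and 1.14e-05), a 4.77-fold and a 5.42-fold fall by 5W. With the slide as a block the falls by 3W were not called (EN −1.15, adjusted p = 0.0857; AN −1.28, adjusted p = 0.0592). Without AN replicate 3 of 3W the change in AN by 3W was −2.18 and still called. On slide 2, where P0 and 5W arrays lay side by side, 5W minus P0 was −2.0 in EN and −2.12 in AN.

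No difference between the nerves was called for Robo1 at any age. It was 0.01 at P0 (95% interval −0.73 to 0.74), −0.36 at 1W (−1.09 to 0.37), −0.13 at 3W (−0.86 to 0.61) and −0.18 at 5W (−0.91 to 0.56), so that differences within these intervals are not excluded. At 3W, AN replicate 3 read 10.07, against 8.58 and 8.29 on the other AN arrays. Without this array the difference between the nerves at 3W was −0.67, which was not called. Without it, the AN step from 1W to 3W was −1.39 (adjusted p = 0.00114), against −0.84 with it (adjusted p = 0.077), and the change in AN by 1W was called at −0.79 (adjusted p = 0.0254, with it 0.117). The EN step from 1W to 3W was −1.07 (adjusted p = 0.029). It was lost without EN replicate 2 or 3 of 1W or EN replicate 1 or 3 of 3W (−1.11 to −0.85, adjusted p = 0.0559 to 0.12) and with the slide as a block (−0.85, adjusted p = 0.263).

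The second Robo1 probe (chr16:72958430-72958489, mm9), above background on all 24 arrays, changed by −1.61 in EN and −1.66 in AN by 5W (adjusted p = 6.19e-05 and 4.86e-05). In AN it had fallen by 1.29 by 1W already (limma, adjusted p = 0.0021), while its EN mean went from 7.67 to 7.23. Its AN arrays lay below its EN arrays at 1W (6.35 to 6.54 against 7.05 to 7.43) and at 3W (5.91 to 6.46 against 6.54 to 6.71), with no call. Over all tested probes the arrays of the nerves did not overlap for 24.7% and 32.7% at these ages. The mean of the 3 probes changed by −1.49 in EN and −1.53 in AN by 5W, both called. The third probe, above background on 13 arrays, changed by −0.92 in EN and −0.81 in AN by 3W (adjusted p = 0.0187 and 0.0382).

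Robo2, the receptor that acts with Robo1 on sensory and motor axons, differed most in size between the nerves. Its lead probe (chr16:73894653-73894712, mm9) read 8.83, 8.91 and 8.89 in EN and 9.00, 9.40 and 8.78 in AN at P0, which overlap. At 1W the EN arrays had come down to 5.32, 6.19 and 7.16, whereas the AN arrays read 8.68, 8.87 and 9.14. At 5W the EN arrays read 4.14, 2.61 and 4.01, none of them well above background, and the AN arrays 7.14, 7.72 and 5.61.

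The AN-EN difference of Robo2 was 0.19 at P0 (95% interval −1.31 to 1.68). It was 2.67 at 1W, 2.80 at 3W and 3.24 in the fit at 5W (SE 0.71, limma, adjusted p = 0.0392, 0.0246 and 0.00853). At 5W the EN signal had only an upper limit, and Robo2 was at least 3.45-fold higher in AN. The call at 1W was lost without any of 11 arrays (all EN of P0 and 3W, all AN of 1W, EN 1 and 2 of 1W; 2.22 to 2.78, adjusted p = 0.0507 to 0.218) and the one at 5W without AN replicate 2 of 5W (2.79, adjusted p = 0.0573). With normexp background correction the difference at 5W was 1.21 (adjusted p = 0.149), and with no filter on dim probes the one at 1W was not called (adjusted p = 0.0669). On the 6 arrays of an age alone, 3W and 5W were not called (adjusted p = 0.151 and 0.137). The 9 pairs of 1W, 3W and 5W ranged from 1.43 to 5.24, all above 0.

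At 3W the AN arrays of Robo2 read 6.89, 6.51 and 10.14 and the EN arrays 5.16, 5.08 and 4.89. Without AN replicate 3, the difference was 1.66 and not called (adjusted p = 0.107), and it was also lost without any EN array of 3W, at adjusted p from 0.0705. The same array raised the level in AN: without it the AN change since P0 was −2.36 (adjusted p = 0.00148), with it −1.22 (adjusted p = 0.16).

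In EN, Robo2 changed by −2.65 by 1W and −3.83 by 3W (limma, adjusted p = 0.00953 and 0.000187). Its mean was 3.59 at 5W against 8.88 at P0 (adjusted p = 5.02e-06), at least 14.3-fold lower. The call at 1W was lost without EN replicate 1 of 1W (−2.20, adjusted p = 0.058). In AN it fell by 2.24 by 5W (adjusted p = 0.0134), a call lost without AN replicate 3 of 5W (−1.63, adjusted p = 0.0858). The change of the AN-EN difference since P0 was 2.49 at 1W and 2.61 at 3W, neither called (adjusted p = 0.53 and 0.368). At 5W, where EN had only an upper limit, it was not called either (adjusted p = 0.184). Without AN replicate 3 of 3W the change at 5W was called (adjusted p = 0.0282), and that at 3W was 1.47 and not called. With array weights the change was called at 1W (2.67, limma, adjusted p = 0.0303) and at 5W (limma, adjusted p = 0.0446). By the looser rule the values at 1W, 3W and 5W all passed. With normexp background correction the EN changes were −2.38 at 3W and −2.71 at 5W, both still called.

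The other tested Robo2 probes fell in EN as well. They passed the filter through groups where they read high, in EN only that of P0 and, for the second, 1W. Their falls are therefore a description and no separate support for the lead probe. The second, printed above, changed by −1.51 at 1W, −2.40 at 3W and −3.42 at 5W (limma, adjusted p = 0.0452, 0.00112 and 3.26e-05), and the last is a fall of at least 5.23-fold. The third (chr16:74350048-74350107) changed by −3.11 in EN by 5W (adjusted p = 0.00161), where 1 of its 3 EN arrays was above background. The fourth (chr16:73896049-73897284) was above background on none of them, and its fall was at least 1.99-fold (adjusted p = 8.84e-05). Between the nerves, of these 3 probes at 4 ages only the fourth at 3W was called (2.29, adjusted p = 0.0225, at least 1.19-fold), and it rested on AN replicate 3, the 1 array of that age above background.

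The sensory neuron markers were set beside Robo2 and Slit1. The array with the highest sensory marker mean, AN replicate 3 of 3W at 13.21, was also the highest of all 24 for Robo2 (10.14) and for Slit1 (10.69). The AN array of 5W with the lowest mean, replicate 3 at 6.94, was the lowest AN array for Robo2 (5.61) and Slit1 (7.43). The 6 neuron and axon markers, such as Nefl and Tubb3, had means of 16.43 and 11.43 on these 2 arrays. Other arrays did not keep the order. In AN of 5W the sensory mean was 10.25 on replicate 1 and 9.13 on replicate 2, but Robo2 read 7.14 and 7.72 and Slit1 8.53 and 9.13. In EN of P0, replicate 3 had the highest sensory mean (11.74) and the lowest Slit1 (9.36). Of the 8 sensory markers, 7, 8 and 7 fell in EN by 1W, 3W and 5W, as Robo2 and Slit1 did. The part of sensory neuron RNA in these results was not tested.

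**Figure D5:**
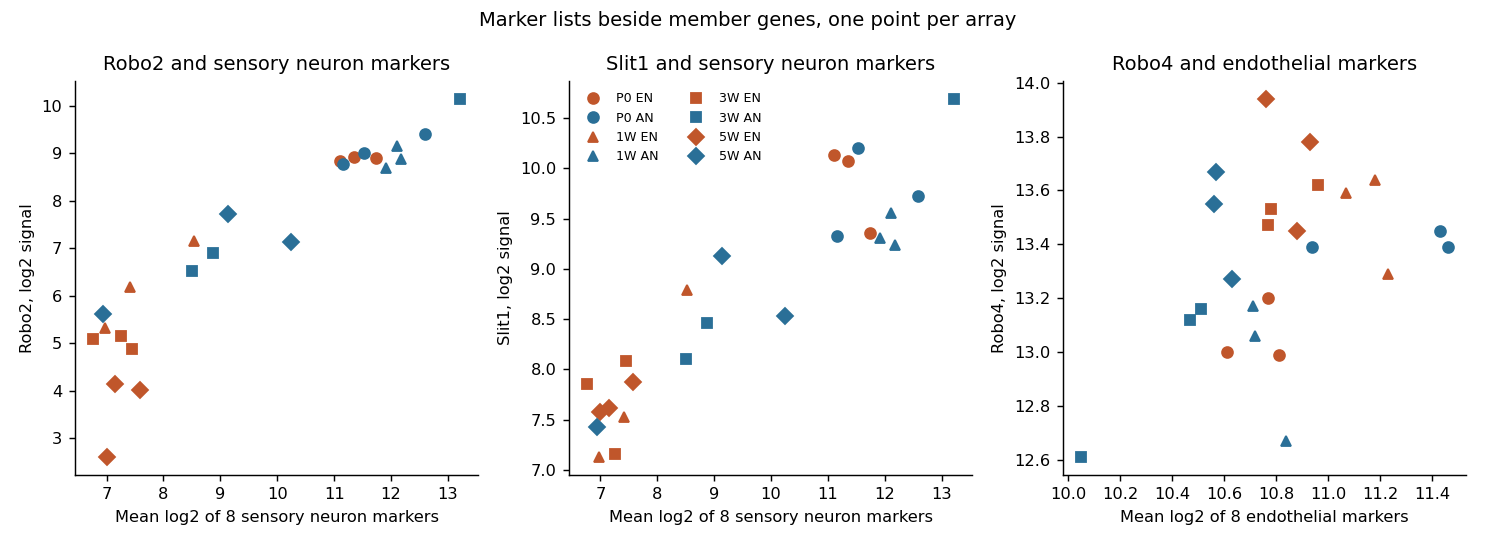
Log2 signal of Robo2, Slit1 and Robo4 (vertical axes) against the mean log2 level of 8 sensory neuron or 8 endothelial markers (horizontal axes), 1 point per array, coloured by nerve and shaped by age. Robo2 and Slit1 were highest on AN replicate 3 of 3W, where the sensory marker mean was 13.21, and Robo4 was lowest there, where the endothelial mean was 10.05.

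Robo3, the receptor that lets commissural axons cross the midline, was not above background on every array. Its lead probe was well above background on 19 arrays and read 9.49, 5.79 and 5.28 in EN and 6.37, 5.42 and 5.60 in AN at P0, where EN replicate 1 stood apart. At 5W it read 4.53, 2.89 and 4.76 in EN, 1 of them above background, and 6.07, 6.57 and 5.14 in AN, without overlap. The EN change by 5W was −2.80 (limma, adjusted p = 0.00343), or −1.48 without EN replicate 1 of P0 (adjusted p = 0.0123), and on the 6 arrays alone it was not called (adjusted p = 0.0906). With normexp background correction it was −1.30 (adjusted p = 0.0214). The AN-EN difference at 5W was 1.87 (95% interval 0.34 to 3.41, adjusted p = 0.144), and it was called at the same size without that P0 array (adjusted p = 0.00961). The EN change by 3W was −1.69 (adjusted p = 0.0586), and it was called without EN replicate 2 or 3 of P0 or EN replicate 2 of 5W (−2.47 to −1.69). No other value of Robo3 was called, and AN changed by −0.33, −0.32 and 0.13 (adjusted p = 0.799, 0.74 and 0.894).

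Robo4, the endothelial receptor, moved least in size. Its probe (chr9:37221537-37221596, mm9) read 13.20, 12.99 and 13.00 in EN and 13.39, 13.39 and 13.45 in AN at P0, every AN array above every EN array, and the difference was 0.34 (95% interval −0.01 to 0.70, adjusted p = 0.72). At 1W the order was the opposite without overlap, at 13.59, 13.64 and 13.29 in EN and 13.06, 13.17 and 12.67 in AN. At 3W it was again EN above AN, at 13.62, 13.47 and 13.53 against 13.12, 13.16 and 12.61.

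The difference of Robo4 was −0.54 at 1W (adjusted p = 0.0902, in pairs 0.0129, with the slide as a block 0.0165) and −0.58 at 3W (limma, adjusted p = 0.0497). The 3W call, at the threshold, was lost without any of 17 arrays (all of P0 and 3W except AN replicate 2 of 3W, AN 1 and 2 and EN 1 and 2 of 1W, AN 1 and EN 3 of 5W; −0.65 to −0.40, adjusted p = 0.0509 to 0.23), and AN replicate 3 of 3W took it furthest, to −0.40. Without that array the difference at 1W was called (adjusted p = 0.0371), as it was with array weights (limma, adjusted p = 0.00496). The 3W call was also lost with scaling to the 75th percentile, with normexp, with no filter on dim probes and on 6 arrays alone (limma, adjusted p = 0.0707, 0.0564, 0.0726 and 0.124). In Robo4 the change of the difference since P0 was −0.88, −0.92 and −0.57 at 1W, 3W and 5W (adjusted p = 0.25, 0.102 and 0.354). In pairs of the same number all 3 were called (limma, adjusted p = 0.0361, 0.0122 and 0.0497), that at 1W was called without AN replicate 3 of 3W (adjusted p = 0.0414), and that at 3W with the slide as a block (adjusted p = 0.0148). With array weights those at 1W and 3W were called (limma, adjusted p = 0.0213 and 0.0323).

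In EN, Robo4 rose by 0.48 by 3W and 0.66 by 5W (limma, adjusted p = 0.0229 and 0.00286), and in AN it changed by −0.45 by 3W (adjusted p = 0.0339). The EN rise by 3W was lost without EN replicate 2 or 3 of P0 or EN replicate 1 of 3W (0.44, adjusted p = 0.0655 to 0.0713) and with the slide as a block (0.27, adjusted p = 0.275). The AN fall was lost without any AN array of P0 or AN replicate 3 of 3W (−0.46 to −0.27). It was also lost with scaling to the 75th percentile (−0.24, limma, adjusted p = 0.365), with array weights (−0.30, adjusted p = 0.0718) and on 6 arrays alone (adjusted p = 0.101). The values at 1W, 0.44 in EN and −0.44 in AN (adjusted p = 0.0614 and 0.0678), were called with the replicate number as a block (adjusted p = 0.0393 and 0.0426) and without AN replicate 3 of 3W (0.0341 and 0.0383). That in AN was −0.58 with the slide as a block (adjusted p = 0.00347), which also called the AN step from 3W to 5W (0.59, adjusted p = 0.0377). That in EN was also called without AN or EN replicate 3 of 1W (0.44 and 0.55).

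The 8 endothelial markers, among them Cdh5, Cldn5 and Tie1, had medians of AN minus EN of 0.55, −0.39, −0.43 and −0.27 at P0, 1W, 3W and 5W. Of them 2 were called higher in AN at P0, and 2, 3 and 1 lower at the later ages. At P0 their mean ran from 10.61 to 10.81 over the EN arrays and from 10.94 to 11.46 over the AN arrays, and at 3W from 10.77 to 10.96 and from 10.05 to 10.51. Against P0, in EN 4, 1 and 2 of these markers rose and 0, 2 and 2 fell by 1W, 3W and 5W. In AN 0 rose and 2, 6 and 4 fell, while Robo4 in AN changed by 0.09 by 5W. The part of these markers in the values of Robo4, Slit2 and Slit3, whose nerve differences took the same signs at P0 and at 3W, was not tested. Of the 5 fibroblast markers, such as Dcn and Lum, none was called at P0 and 3 were lower in AN at 3W, with means of 15.48 to 15.67 in EN and 14.91 to 15.29 in AN. Macrophage markers, 4 in all, rose in EN at every later age, and 3 of them rose in AN, beside the rise of Slit2. The part of these cells and of Schwann cells in the values of Slit2 was not tested either.

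Around the ligands and receptors, a list of 43 genes of the pathway was read through 1 probe each, and all were tested. The change of the AN-EN difference was called for none of them at 1W, 3W or 5W, although 7 values passed the looser rule and 5 were called in pairs of the same number. Between the nerves no gene of the list was called at P0, 1 of 43 at 1W, 5 of 43 at 3W and 6 of 43 at 5W, where 0.736%, 4.01%, 5.92% and 6.8% of all tested probes were called. These are 12 values in all, and 31 in pairs, where the share of all tested probes is not given here. Median differences of the list were 0.05, 0.00, 0.03 and 0.18, and over all tested probes 0.01, −0.06, −0.03 and −0.03.

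Pak3, a neuronal kinase downstream of Rac and Cdc42, was the higher in AN by 1.91 at 1W, 1.61 at 3W and 1.54 at 5W (limma, adjusted p = 0.0171, 0.0369 and 0.0407). Usp33, a deubiquitinase that binds Robo1, differed by 0.58 at 3W (adjusted p = 0.00445), and at that age the differences of Srgap2, Dag1 and Adam10 were −1.09, −0.56 and −0.50, lower in AN. The Srgap2 protein binds Robo tails, dystroglycan (Dag1) binds Slits in the matrix, and Adam10 is a protease that cleaves Robo receptors. At 5W the largest differences were those of Pak3, the Robo3 ligand Nell2 (1.17, adjusted p = 0.0299) and the heparan sulfate carrier Sdc4 (0.89, adjusted p = 0.014), all higher in AN.

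With age, more of the list moved. By 5W, 28 of 43 were called in EN (12 higher, 16 lower) and 27 in AN (12 higher, 15 lower), against the 54.3% and 50.7% of all tested probes. The largest falls in EN were those of Nell1, an EGF-repeat protein related to Nell2 (−5.41), Srgap1, which also binds the Robo tail (−2.78) and Pak3 (−2.66). In AN they were those of Nell1 (−4.18), Srgap1 (−2.06) and the syndecan Sdc1, a heparan sulfate carrier (−1.82).

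The largest rises by 5W were Prrg4 (2.18 in EN, 1.94 in AN), related to the fly protein that removes Robo from the growth cone, and Adam10 (1.93 in EN, adjusted p = 1.38e-09, 1.79 in AN). In EN Ndfip2 (1.73), an adaptor of Nedd4 ubiquitin ligases, came next, and in AN Arhgap39 (1.45). Of the 6 genes for receptor trafficking and cleavage, 4 rose and 2 fell in EN and 3 rose and 1 fell in AN by 5W. The 15 partners outside the cell held 1 rise and 8 falls in EN and 1 rise and 6 falls in AN. The 22 intracellular genes had 7 rises and 6 falls in EN and 8 of each in AN. Of all tested probes, 28.2% rose and 26.1% fell in EN and 26.5% rose and 24.2% fell in AN.

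The genes whose 8 group means ran most like each member were listed as a description, with Pearson's r over 8 groups that share slides and a normalization. For Slit2 they were Cep112, 9130019P16Rik and Ly6e (r = 0.98 each), and for Slit3 Gpc4 (0.96), St3gal1 (0.95) and Dnajb6 (0.94). For Slit1 they were Nwd2, Rtn2 and Scx (0.99 each), and for Robo1 Sidt1, B4galt7 and Zfp184 (1.00 each after rounding). For Robo2 they were Ttc9b, Kcnk10 and Gdap1 (1.00 each after rounding), for Robo3 Gm35678, 2810021J22Rik and Gm30732 (0.96, 0.96 and 0.95), and for Robo4 Apobec3, Map2k3 and Sp110 (0.97, 0.97 and 0.96). Among the members, Slit1 and Robo2 were most alike (0.93) and Slit2 and Robo1 most opposed (−0.85).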

How the data were processed

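Total RNA of EN and AN went on 1-colour Agilent SurePrint G3 mouse arrays after Cyanine-3 labelling (24 arrays, 8 groups of 3, grouped by their deposited labels). The authors deposited the scanner intensity of each spot (Agilent Feature Extraction 10.7.1.1, per the labels) and a log2 table of 56743 probes, which they had quantile normalized in GeneSpring GX. The log2 table gave the main values. The scanner intensity files gave background marks, probe sequences and alternatives. Each column of the table correlated best with its own array's scanner signal. Of 56605 gene probes, 36409 were tested, and 262 outlier values among them were left out.

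The 8 group means were fitted with limma 3.58.1 in R 4.3.3 (16 residual degrees of freedom, variances moderated), with Benjamini-Hochberg adjusted p over all tested probes of a contrast and a call at an adjusted p below 0.05. Scripts were tested on simulated data. Python 3.11.15 was used for summaries and figures. Where a group was on no array above background, a bound was taken against the higher of each array's detection limit and the probe's value there. Replicate numbers paired AN with EN: their deviations from the group means correlated at 0.107 to 0.665 in all 12 pairs, and pairs lay on the same slide. The labels do not say whether a number marks shared animals, so p values cover the spread between these arrays. The 4 slides, in 3 scan batches, held several groups each.

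The family, the lists and the rules were chosen with earlier results of these data known. Named genes were the 7 members, the 3 genes most like each in group means, and from the pathway list up to 3 called genes per direction and comparison. Marker lists were Schwann cell, sensory neuron, motor neuron and cholinergic, neuron and axon, fibroblast, endothelial, meningeal, boundary cap, macrophage, oligodendrocyte, astrocyte, floor plate and skeletal muscle. Alternatives were the scanner signal (quantile normalized or scaled to the 75th percentile), normexp with offset 50, other probe filters, replicate, pair and slide blocks, array weights, each comparison's 6 arrays alone, calls by fold change above 2, the mean of a gene's probes and each array left out. Pair blocks were added after seeing the data. Array number and signal over background (median signal 45.4 to 191 over a background of 23 to 46) limit the precision.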

Additional observations from a re-analysis of the deposited data

Results flagged for a closer look

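In 4 results the effect of age differed between the nerves, by the test of the difference itself (limma, interaction contrast over 36409 probes). For Slit2, the AN-EN difference at 1W, 3W and 5W minus that at P0 was −1.74, −2.26 and −1.93 on the log2 scale (adjusted p = 0.002, 5.66e-05 and 0.000204), and AN minus EN had the same sign as its group difference in 3 of 3 pairs at each of the 4 ages. For Slit3 it was −1.62 at 3W (adjusted p = 0.0345), with AN above EN in 3 of 3 pairs at P0 and below in 3 of 3 at 3W. The Slit2 value at 1W was not called with the mean of its probes (limma, adjusted p = 0.144). The Slit3 value was not called with normexp (adjusted p = 0.0572), with no filter on dim probes (adjusted p = 0.0554) or without any of 11 arrays (adjusted p = 0.0512 to 0.106).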

How the results depend on the processing

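Over the 7 lead probes, 8 values between the nerves were called, 25 against P0, 4 for the change of the AN-EN difference and 6 for steps between ages. Of these 43 values, 14 kept their direction and call under every alternative that could be computed and with each array left out. With arrays left out one at a time the counts between the nerves ran from 4 to 9 for the members and from 6 to 14 for the pathway list. Between the nerves, 5 values were called with normexp, 5 over probes above background on all 24 arrays (Robo2 and Robo3 are then left out), 3 on 6 arrays alone and 4 with a fold change above 2 beside the adjusted p, and the pathway list gave 23 with the slide as a block, 27 with array weights, 3 on 6 arrays alone and 5 with the fold change. For the change, 8 member values were called with array weights and 10 by the looser rule (raw p under 0.05, more than 2-fold), and for the pathway list 4, 1 and 7 with the slide block, array weights and that rule, in place of 0. For steps, the member count was 11 with array weights and 3 with the mean of a gene's probes or either fold change rule, and the pathway count, 30, became 15 with the slide block, 58 with array weights, and 11 and 10 with the fold change rules. Against P0, 66 in place of 142 pathway values passed with either fold change rule. The AN change of Slit2 by 3W was −0.61 with the mean of its probes, since the probe at chr5:48673757-48673816 fell, and the AN step of Slit3 from 1W to 3W was −0.14 with the slide as a block (the cause was not tested). The slide is partly confounded with age, since 3W shares a slide with 5W alone.

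With AN and EN of the same number as pairs within each age (replicate block within each age), 12 member values were called between the nerves and 8 for the change, and 31 and 5 pathway values, with no call lost and 8 member values gained. Shares of all tested probes under the alternatives of this section are not given here, so their counts describe the settings and not the genes. The replicate number as a block over all ages gave 8, 28, 4 and 6 member values and changed no other call than that of Robo3 in EN by 3W (−1.69, adjusted p = 0.0454) and those of Robo4 by 1W. No fit on 6 arrays was made for the change or the steps, and no pair fit for changes with age within a nerve. Dim probes (Robo3, Robo2 in EN, the weaker Slit2 probes) are limited by signal over background.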
